A study of Homo sapiens with 4 samples.

Results

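The 10 genes described here make, break down, carry and sense retinoic acid: RDH10, ALDH1A1, ALDH1A2 and ALDH1A3 for synthesis, CYP26A1 and CYP26B1 for breakdown, CRABP2 for binding, and the receptors RARA, RARB and RARG. They were found by symbol among 58274 gene identifiers of a deposited expression table, and each lay on a single row. RNA was measured in 4 populations of human cells, with 1 library per population. They were BC1, an induced pluripotent stem cell line left undifferentiated, and the sorted fractions that followed from it: APLNR+ cells at day 2, called mesoderm below, CD31+CD34+ cells at day 5, called hemogenic endothelial progenitors (HEPs), and CD43+ cells at day 8, called hematopoietic progenitor cells (HPCs). The 3 fractions were made in a chemically defined medium, with activin A and BMP4 given for 2 days and VEGF and bFGF after that. Whether that medium held vitamin A or retinoic acid was not given in the sources used here. Nor was it given whether the 4 libraries came from 1 differentiation run.

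Retinoic acid is made from vitamin A (retinol) inside cells. RDH10 oxidises retinol to retinal, and the ALDH1A enzymes oxidise retinal to retinoic acid, which CRABP2 carries to receptors of the RAR family in the nucleus. A RAR binds DNA together with an RXR, on pairs of a short repeat, and holds genes down through corepressors until retinoic acid arrives. The CYP26 enzymes hydroxylate retinoic acid and so remove it, and CYP26A1 and RARB are themselves well-known genes that retinoic acid induces. In embryos, retinoic acid patterns the mesoderm and is known to act on the endothelium from which blood stem cells arise, and high aldehyde dehydrogenase activity is widely used to sort blood progenitors.

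Levels are given in FPKM, the fragments counted on a gene divided by its transcript length and by the depth of the library. Changes are given as differences of log2(FPKM + 1), and a gene is said to have risen, fallen or changed where that difference reached 1. This scale understates the fold of genes with low values. Since no population had a replicate, no difference was tested and no p-value is given. Folds are ratios of FPKM, and the 95% interval behind each is an exact Clopper-Pearson interval from approximate fragments. It covers counting error only, and not the spread between cultures or sorts.

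The libraries held between 19700000 and 23600000 mapped fragments, as read from the steps between low values. The genes of the sorting markers followed the labels, with APLNR at 1073 FPKM in mesoderm, PECAM1 (CD31) at 93.1 FPKM in HEPs and 126 FPKM in HPCs, CD34 highest in HEPs at 102.1 FPKM, and SPN (CD43) highest in HPCs at 92.4 FPKM. Genes listed as markers of other cell types were present too. The 3 pluripotency markers summed to 574 FPKM in mesoderm, against 2192 FPKM in BC1 and at most 1.90 FPKM later. In mesoderm that sum was nearly all POU5F1, at 573 FPKM, while SOX2 and NANOG were at 0.766 and 0.957 FPKM there, after 172 and 23.6 FPKM in BC1. The 5 markers of definitive endoderm summed to 12.8 FPKM in BC1, 33.7 FPKM in mesoderm, 14.0 FPKM in HEPs and 0.693 FPKM in HPCs. The sum in BC1 was mostly AFP, at 11.5 FPKM, and that in HEPs mostly SOX17, at 11.8 FPKM. FOXA1 was at 1.56 FPKM in HEPs, and FOXA2, HNF4A and AFP were at 0.198, 0.194 and 0.188 FPKM. In mesoderm, 3 of the 5 reached 1 FPKM, with SOX17 at 16.6 FPKM and AFP at 14.7 FPKM. FOXA2 was at 0.588 FPKM there, against 0.522 FPKM in BC1. The summed level of the 7 stromal and smooth muscle markers was highest in HEPs, at 319 FPKM against 64.4 to 166 FPKM elsewhere, of which COL1A1 made up 184 FPKM. Of the 7, COL1A1, ACTA2 and PDGFRB were highest in HEPs, TAGLN was highest in BC1, and PDGFRA, DCN and LUM were highest in mesoderm. The 4 ectoderm markers summed to at most 3.40 FPKM in any library. In bulk samples such as these, fewer cells of a type and less RNA per cell cannot be told apart.

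RAR and RXR pairs bind direct repeats of a hexamer, so the RefSeq windows from 250 bases before to 50 bases after each start site (GRCh38.p14) were searched for such repeats. A repeat was counted where 2 hexamers, the same or different and each AGGTCA or GGGTCA or AGTTCA or GGTTCA, followed each other in 1 direction with 1, 2 or 5 bases between them, on either strand. These forms are called DR1, DR2 and DR5. The members had 16 windows, for 9 of the 10 genes. A DR5 was found in 1 window of RARB and 1 window of CYP26A1, and no member window held a DR1 or DR2. Of 35116 windows of all genes, 0.0883% held a DR5, 0.131% a DR1 and 0.0399% a DR2. The pair is printed because these genes are textbook retinoic acid targets and their levels in these cells were far apart. CRABP2 is a target too, and its 1 window held no match. The hexamers are in capitals, with 6 bases on each side.
RARB, chr3:25428204-25428232, plus strand: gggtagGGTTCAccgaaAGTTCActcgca
CYP26A1, chr10:93073797-93073825, minus strand: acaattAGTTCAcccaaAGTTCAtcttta
The second hexamer, AGTTCA, is the same in both repeats. The RARB repeat lies from 53 to 37 bases before a start site inside the gene, within an intron of the longest-spanning RARB transcript. The CYP26A1 repeat lies on the strand opposite to the gene, from 90 to 74 bases before the start site of its downstream transcript and inside exon 1 of the transcript that starts further upstream. These are matches of letters, and nothing in these data measures binding.

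From BC1 to mesoderm, CYP26A1, CYP26B1 and CRABP2 rose and no member fell. From mesoderm to HEPs the same 3 genes fell, together with RDH10, ALDH1A1 and RARG, and none rose. From HEPs to HPCs, ALDH1A1 rose while CRABP2 and RARG fell. Of the 10 genes, 9 passed the filter of at least 1 FPKM in at least 1 library, and RARB did not. Thus 3 of 10 changed at the first transition, where 18.5% of 17137 genes changed, 6 of 10 at the second (24.4% of genes) and 3 of 10 at the third (21.2% of genes). As shares of the 9 members that passed, counted as for all genes, they were 33.3%, 66.7% and 33.3%. By direction, 9.15% of genes rose and 9.32% fell at the first transition, 13% rose and 11.4% fell at the second, and 7.63% rose and 13.5% fell at the third. The median change over all 10 members was 0.68, -1.13 and -0.21 at the 3 transitions, against 0.00, 0.01 and -0.08 over all genes that passed. Consecutive transitions share a library, so a gene that is high in mesoderm alone enters both the first and the second count.

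**Figure D1:**
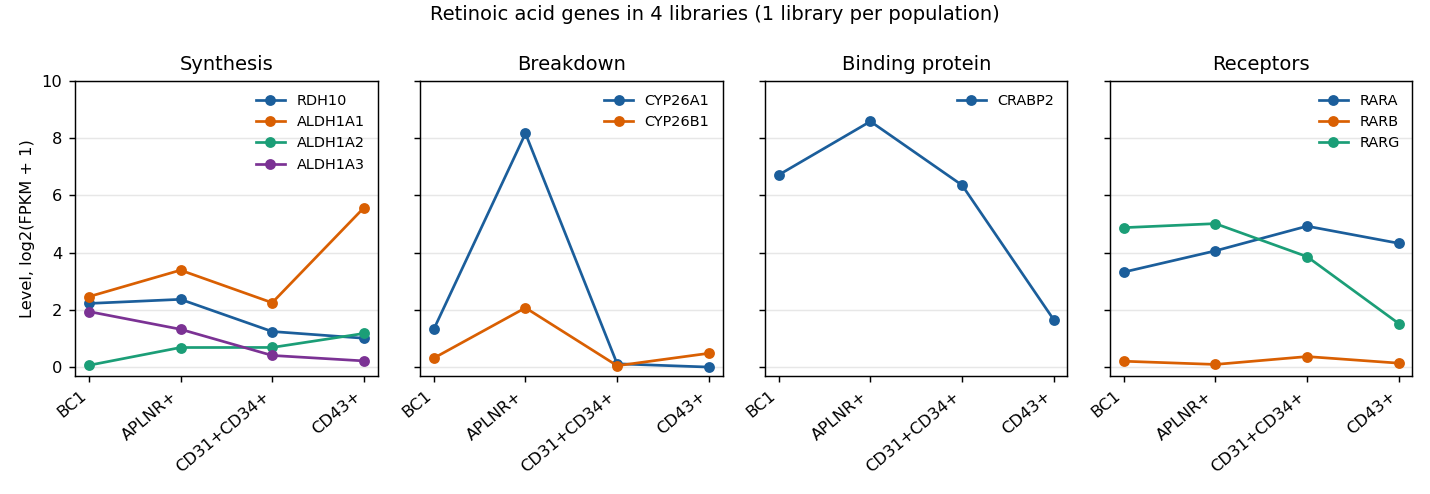
Level of each of the 10 genes as log2(FPKM + 1) in the 4 libraries, in the order of differentiation, with 1 panel for each role and 1 point per library. CYP26A1 stands out in APLNR+ alone at 286 FPKM, ALDH1A1 is highest in CD43+ at 46.4 FPKM, and the lines of RARA and RARG cross between APLNR+ and CD31+CD34+.

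Among the synthesis genes, the ALDH1A family changed in make-up as well as in level. ALDH1A1 (chromosome 9, 72900662 to 73080442, minus strand) was measured at 4.51 FPKM in BC1, 9.47 in mesoderm, 3.76 in HEPs and 46.4 in HPCs. HPCs stood above the others, mesoderm came next, and BC1 and HEPs were not separated by counting error, at a ratio of 1.20 (0.790 to 1.84). The change was 0.93 from BC1 to mesoderm, just short of the threshold, although the fold of 2.10 had an interval of 1.49 to 3.01. ALDH1A1 then fell 2.52-fold (1.79 to 3.64) into HEPs and rose 12.4-fold (9.23 to 17.2) into HPCs. These steps were -1.14 and 3.32 on the log2 scale. Among the protein-coding genes that passed the filter it moved from percentile 27.8 in HEPs to percentile 85.0 in HPCs. Beside this rise, the summed level of the 4 hematopoietic markers went from 84.8 to 6443 FPKM, and that of the 4 endothelial markers from 629 to 83.9 FPKM. The hematopoietic sum in HPCs was mostly HBE1, at 5271 FPKM, with ITGA2B at 982 FPKM and GATA1 at 190 FPKM. MPO, a myeloid marker on the hematopoietic list, was near 0 in each library, at most 0.0790 FPKM.

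ALDH1A3 (chromosome 15, 100877714 to 100916626, plus strand), known from the eye and nasal region of the embryo, differed from ALDH1A1 in direction at the first transition and at the third, and went down with it at the second. It was measured at 2.84 FPKM in BC1, 1.5 in mesoderm, 0.325 in HEPs and 0.161 in HPCs. Each step was downward, by 1.89-fold (1.40 to 2.60), 4.61-fold (2.66 to 8.58) and 2.02-fold (0.811 to 5.99), and only the last interval held 1. On the log2 scale the steps were -0.62, -0.92 and -0.19, none of which reached the threshold. Exons of ALDH1A3 share 27.5% of their bases with the antisense gene AC015712.2, which had at most 0.316 FPKM.

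ALDH1A2 (chromosome 15, 57953424 to 58497866, minus strand), the main retinoic acid enzyme of trunk mesoderm in embryos, stayed low. Its levels were 0.0443 FPKM in BC1, 0.606 in mesoderm, 0.609 in HEPs and 1.26 in HPCs. BC1 was lowest and HPCs were highest, while mesoderm and HEPs had a ratio of 1.0 (0.474 to 2.01). The fold of mesoderm over BC1 was 13.7, with an interval from 2.45 to 654 that reflects 1 fragment in BC1. From HEPs to HPCs the fold was 2.07 (1.18 to 4.0). The 3 changes on the log2 scale were 0.62, 0.00 and 0.49. AQP9, on the opposite strand, covers 4.11% of its exonic bases and was at 2.35 FPKM in mesoderm and 0.308 FPKM in HPCs. Whether strand was used in counting was not given in the sources used here, so reads from such overlaps cannot be told apart.

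RDH10 (chromosome 8, 73294612 to 73325281, plus strand), the enzyme of the step before, was measured at 3.67 FPKM in BC1, 4.16 in mesoderm, 1.37 in HEPs and 1.01 in HPCs. The earlier pair of libraries lay above the later pair. Within each pair the intervals held 1, at 1.13 (0.774 to 1.67) for mesoderm over BC1 and 1.35 (0.698 to 2.88) for HEPs over HPCs. Between the pairs, RDH10 fell 3.04-fold (1.83 to 5.04) from mesoderm to HEPs, a change of -1.12.

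As shares of the summed ALDH1A level, ALDH1A1 made up 61.0% in BC1, 81.8% in mesoderm, 80.1% in HEPs and 97.0% in HPCs. ALDH1A3 went from 38.4% in BC1 to 0.337% in HPCs. ALDH1A1 thus led the family in each library, by 1.59-fold (1.11 to 2.22) over ALDH1A3 in BC1 and by 36.9-fold (26.0 to 53.2) over ALDH1A2 in HPCs. Levels per length can be set side by side between genes only as far as the transcript lengths used by the authors fit these cells.

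**Figure D2:**
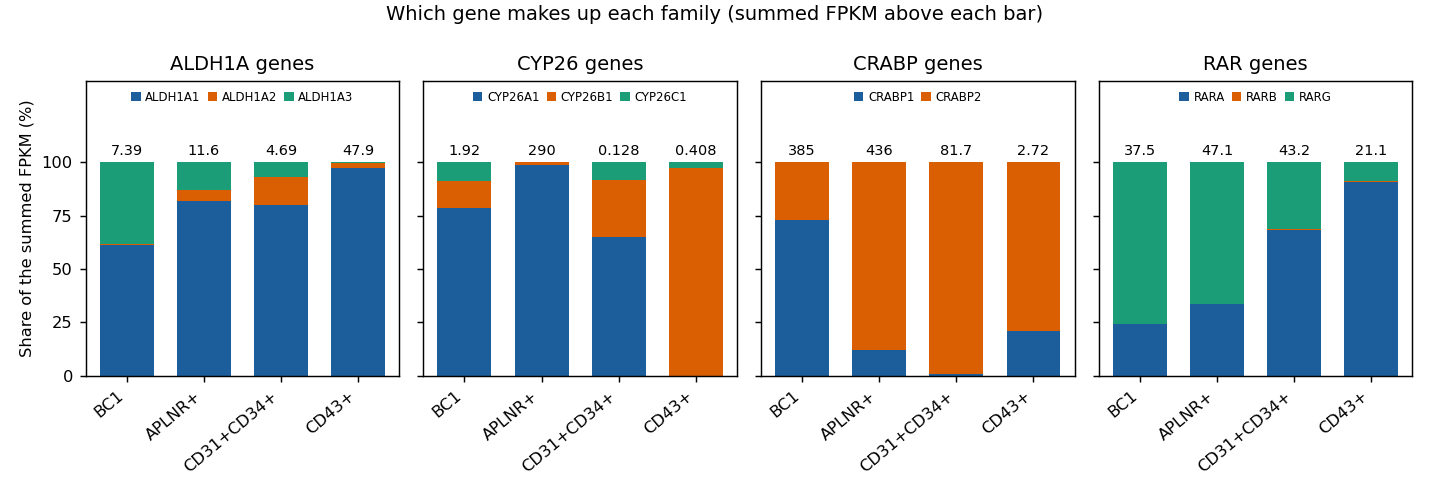
Share (%) of each gene in the summed FPKM of its family in the 4 libraries, with the sum above each bar. ALDH1A1 reaches 97.0% of ALDH1A in CD43+, CYP26A1 makes up 98.8% of CYP26 in APLNR+, CRABP1 gives way to CRABP2 after BC1, and RARG gives way to RARA.

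The breakdown genes gave the widest swings. CYP26A1 (chromosome 10, 93073475 to 93077890, plus strand) was measured at 1.51 FPKM in BC1, 286 in mesoderm, 0.0830 in HEPs and was listed at 0 in HPCs. It was high in mesoderm and in no other library. The rise was 190-fold (147 to 252), a change of 6.84. It lifted CYP26A1 from percentile 15.7 to percentile 98.0 of the protein-coding genes that passed the filter. The fall into HEPs was 3452-fold (1257 to 11816), a change of -8.05, and it rested on 11798 fragments in mesoderm and 4 in HEPs. In HPCs, 3 fragments would have given 0.0732 FPKM, which is the level that a count of 0 allows. Beside the peak in mesoderm, the 4 mesoderm markers summed to 1133 FPKM there and to at most 7.89 FPKM in the other libraries. The sum of the endoderm markers given above was highest in mesoderm too, while 1 of them, FOXA1, was highest in HEPs at 1.56 FPKM. The part of each cell type in the CYP26A1 level was not tested. Exons of CYP26A1 share 25.2% of their bases with AL358613.3, a transcript on the same strand that was not analysed here.

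CYP26B1 (chromosome 2, 72129238 to 72148038, minus strand), its paralog with the same reaction, peaked in the same library at a far lower level. It was measured at 0.243 FPKM in BC1, 3.21 in mesoderm, 0.0339 in HEPs and 0.396 in HPCs. mesoderm was highest, HPCs and BC1 were not separated (1.63, 0.892 to 3.10), and HEPs were lowest. CYP26B1 rose 13.2-fold (8.18 to 22.6) into mesoderm and fell 94.5-fold (31.9 to 460) into HEPs, by 1.76 and -2.02 on the log2 scale. The fold of HPCs over HEPs was 11.7 (3.66 to 59.8) from 3 fragments in HEPs, and the change of 0.43 did not reach the threshold. CYP26A1 exceeded CYP26B1 by 89.4-fold (79.1 to 101.6) in mesoderm. The third paralog, CYP26C1, had at most 0.275 FPKM in each library.

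The carrier CRABP2 (chromosome 1, 156699606 to 156705816, minus strand) had the highest level of the 10 genes in BC1, mesoderm and HEPs. It was measured at 104 FPKM in BC1, 384 in mesoderm, 81.1 in HEPs and 2.15 in HPCs. All neighbours in this order were separated beyond counting error, the closest being BC1 over HEPs at 1.29-fold (1.19 to 1.39). CRABP2 rose 3.68-fold (3.46 to 3.91), then fell 4.74-fold (4.45 to 5.05) and 37.7-fold (26.0 to 57.1), which were changes of 1.87, -2.23 and -4.70. In HPCs it lay at percentile 24.5 of the protein-coding genes that passed the filter, after percentile 91.4 in HEPs.

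CRABP1, the paralog that holds retinoic acid in the cytoplasm, was measured at 281 FPKM in BC1, 51.8 in mesoderm, 0.601 in HEPs and 0.569 in HPCs. It was therefore the main CRABP in BC1 only, at 2.69-fold (2.52 to 2.87) the level of CRABP2. In mesoderm CRABP2 was 7.42-fold (6.80 to 8.11) above CRABP1, and in HEPs 135-fold (65.0 to 335). The third carrier, FABP5, which brings retinoic acid to PPARD, was measured at 171 FPKM in BC1, 609.5 in mesoderm, 39.9 in HEPs and 63.0 in HPCs. FABP5 rose and fell at the same transitions as CRABP2 up to HEPs. Its level is uncertain, since it has many pseudogenes of near-identical sequence that could share its reads.

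Among the receptors, RARG and RARA changed places. RARG (chromosome 12, 53210567 to 53232980, minus strand) was measured at 28.3 FPKM in BC1, 31.3 in mesoderm, 13.5 in HEPs and 1.87 in HPCs. mesoderm and BC1 were close, at 1.11 (1.01 to 1.21), and HPCs were far below. RARG fell 2.32-fold (2.07 to 2.59) from mesoderm to HEPs and 7.22-fold (5.55 to 9.68) from there to HPCs, by -1.15 and -2.34 on the log2 scale.

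RARA (chromosome 17, 40309192 to 40357643, plus strand), the receptor known from acute promyelocytic leukemia, was measured at 8.99 FPKM in BC1, 15.7 in mesoderm, 29.4 in HEPs and 19.1 in HPCs. HEPs were highest and BC1 lowest, and all neighbours in the order were separated beyond counting error. The folds were 1.75 higher (1.52 to 2.01), 1.87 higher (1.69 to 2.06) and 1.54 lower (1.40 to 1.69), and the changes of 0.74, 0.86 and -0.60 did not reach the threshold. RARA-AS1, on the opposite strand, covers 11.8% of its exonic bases and had 0.671 FPKM in BC1, 2.18 in mesoderm, 6.24 in HEPs and 4.15 in HPCs, the same order of libraries as RARA.

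RARG was 3.15-fold (2.76 to 3.59) above RARA in BC1 and 1.99-fold (1.80 to 2.21) above it in mesoderm. In HEPs RARA was 2.17-fold (1.95 to 2.42) above RARG, and in HPCs 10.2-fold (7.86 to 13.6). The share of RARG in the summed RAR level was 75.6%, 66.5%, 31.3% and 8.90% along the 4 libraries. The sum itself moved much less, from 37.5 FPKM in BC1 to 47.1 in mesoderm, 43.2 in HEPs and 21.1 in HPCs.

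RARB (chromosome 3, 25174332 to 25597932, plus strand), whose start site carries the repeat printed above, was near the limit of these libraries throughout. It was measured at 0.153 FPKM in BC1, 0.0660 in mesoderm, 0.290 in HEPs and 0.0999 in HPCs, from 7, 3, 16 and 5 fragments. Neighbours in the order of levels were not separated. HEPs were above mesoderm by 4.39-fold (1.40 to 26.1) and above HPCs by 2.91-fold (1.02 to 10.2). RARB had its lowest value in mesoderm, the library where CYP26A1 was highest, but was not separated there from BC1 or HPCs by counting error. It made up at most 0.671% of the summed RAR level. Exons of RARB share 0.757% of their bases with TOP2B on the opposite strand, a gene at 28.8 to 36.7 FPKM.

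**Figure D3:**
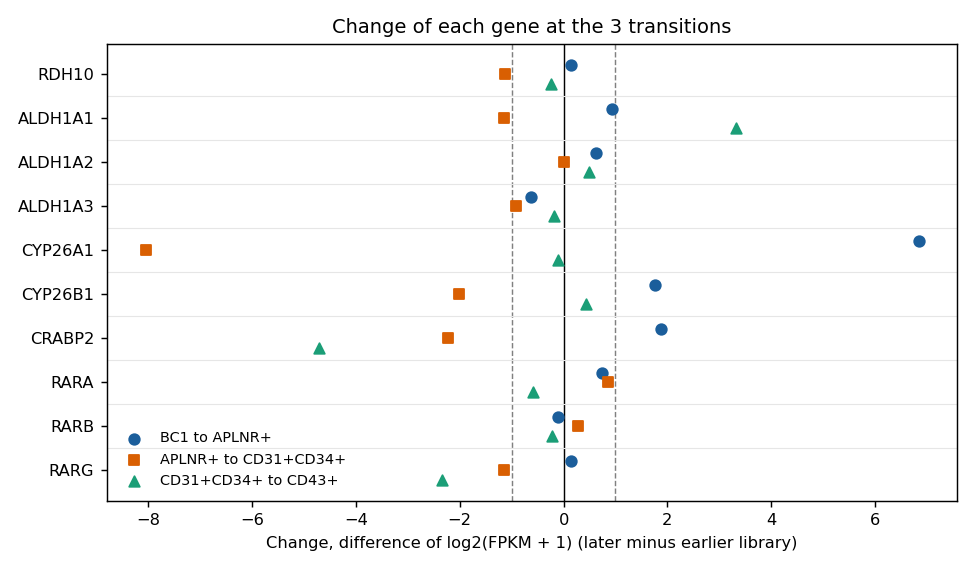
Difference of log2(FPKM + 1), later minus earlier library, for each of the 10 genes at the 3 transitions, with dashed lines at the threshold of 1 in either direction. CYP26A1 has the widest swing, 6.84 and then -8.05, and ALDH1A1 is the 1 gene past the threshold upward from CD31+CD34+ to CD43+, at 3.32.

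The balance of transcripts for synthesis and breakdown turned over along the series. The summed ALDH1A level was 7.39 FPKM in BC1, 11.6 in mesoderm, 4.69 in HEPs and 47.9 in HPCs, and the summed CYP26 level was 1.92, 289.9, 0.128 and 0.408 FPKM. CYP26 transcripts exceeded those of ALDH1A in mesoderm alone, at 25 to 1. ALDH1A exceeded CYP26 in the others, at 3.85 to 1 in BC1, 36.7 to 1 in HEPs and 117 to 1 in HPCs. In HEPs the CYP26 sum rested on 4 fragments of CYP26A1, 3 of CYP26B1 and 0 of CYP26C1, at or near the floor of 3 fragments. The size of the HEP ratio is therefore uncertain. In HPCs the CYP26 sum rested on 32 fragments of CYP26B1, with 0 of CYP26A1 and CYP26C1. These are ratios of RNA levels and say nothing of enzyme activity or of retinoic acid itself, which were not measured. The summed CRABP level per RAR level went from 10.3 in BC1 and 9.25 in mesoderm to 1.89 in HEPs and 0.129 in HPCs. The RXR partners summed to 23.0, 38.0, 36.3 and 15.2 FPKM and stayed below the RAR sum in each library.

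**Figure D4:**
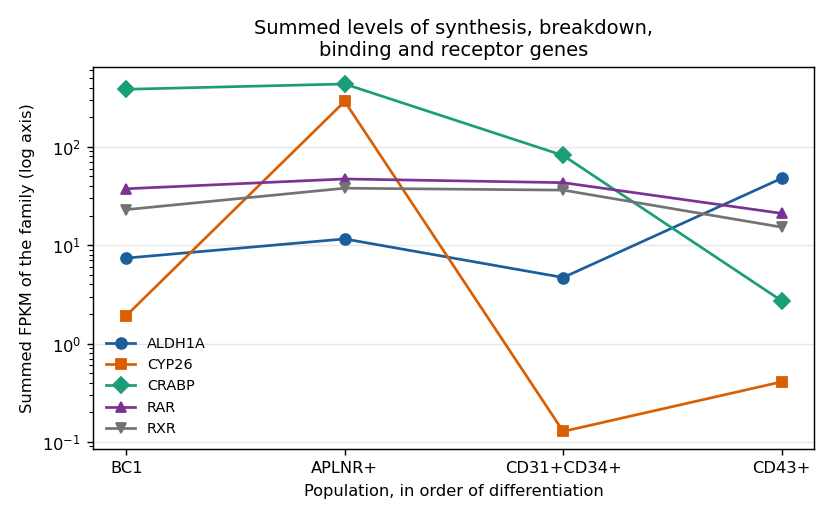
Summed FPKM (log axis) of the ALDH1A, CYP26, CRABP, RAR and RXR genes in the 4 libraries, with 1 point per family and library. The CYP26 sum is 289.9 FPKM in APLNR+ and at most 1.92 FPKM elsewhere, the ALDH1A sum is highest in CD43+ at 47.9 FPKM, and the CRABP sum ends at 2.72 FPKM.

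A further 41 genes of the retinoid pathway were listed, from uptake to coregulators, and 31 of them passed the filter. From BC1 to mesoderm, 6 of the 41 rose and 4 fell. From mesoderm to HEPs, 1 rose and 11 fell, and from HEPs to HPCs, 1 rose and 3 fell. Changed in either direction were 32.3%, 38.7% and 12.9% of the 31 that passed, against 18.5%, 24.4% and 21.2% of all genes that passed. Of all genes, 9.15% rose and 9.32% fell at the first transition, 13% and 11.4% at the second, and 7.63% and 13.5% at the third. The last 2 transitions share the HEP library, and the first 2 the mesoderm library.

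Uptake and transport genes were split. STRA6, the membrane receptor that takes up retinol, was measured at 6.98 FPKM in BC1, 15.5 in mesoderm, 24.1 in HEPs and 13.6 in HPCs, and rose 2.22-fold (1.95 to 2.53) into mesoderm. RBP4, the retinol carrier of blood plasma, had 7.72, 25.6, 3.88 and 3.24 FPKM, and its partner transthyretin (TTR) had 3.39, 8.46, 1.97 and 1.03 FPKM. Both rose into mesoderm and fell into HEPs, as did the endoderm marker sum. RBP4 and TTR are also made by endoderm and liver, and AFP, a marker of that lineage, was at 11.5 FPKM in BC1, 14.7 in mesoderm and 0.188 in HEPs. The part of such cells in these values was not tested.

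Inside the cell, most of the genes that bind or store retinol fell. LRAT, which esterifies retinol for storage, was at 3.58 FPKM in BC1, 0.406 in mesoderm, 0.0365 in HEPs and 0.00996 in HPCs. The fall of LRAT into mesoderm was 8.82-fold (5.54 to 14.5). RBP7 fell from 2.96 FPKM in BC1 to 0.874 in mesoderm, and RBP5 from 2.11 FPKM in mesoderm to 0.347 in HEPs. DGAT1, a general acyltransferase that can also esterify retinol, went the other way and rose 2.31-fold (2.19 to 2.44) into HEPs, from 36.4 to 84.1 FPKM.

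The redox enzymes between retinol and retinal were mixed. DHRS3, which turns retinal back into retinol, was measured at 8.13 FPKM in BC1, 2.81 in mesoderm, 0.528 in HEPs and 1.42 in HPCs. It fell at the first transition by 2.90-fold (1.94 to 4.45) and at the second by 5.31-fold (2.25 to 13.8). RDH11, an abundant retinal reductase, had 70.3, 64.8, 34.5 and 93.7 FPKM and rose 2.72-fold (2.46 to 3.01) into HPCs. The alcohol dehydrogenases ADH1B, ADH1C and ADH4 all fell into HEPs, from 6.56, 3.67 and 1.96 FPKM to 0.803, 0.406 and 0.266 FPKM, and ADH1B had risen into mesoderm from 2.53 FPKM. ADH1B and ADH1C are near-identical copies of each other, so the split of reads between them is uncertain. AKR1B10, a retinal reductase, fell from 1.65 to 0.162 FPKM at the second transition, and RDH16 fell from 1.49 to 0.211 FPKM at the third.

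Of the receptor partners, RXRA was measured at 18.1 FPKM in BC1, 30.8 in mesoderm, 26.7 in HEPs and 7.77 in HPCs, and fell 3.44-fold (2.86 to 4.14) into HPCs. RXRB had 4.91, 6.09, 9.29 and 7.48 FPKM and did not reach the threshold at a transition. RXRA was 5.05-fold (4.42 to 5.79) above RXRB in mesoderm, and in HPCs they were not separated, at 1.04 (0.857 to 1.25). RXRG rose from 0 fragments in BC1 to 1.09 FPKM in mesoderm, at least 13.6-fold above the level of 3 fragments per library, and was at 0.313 FPKM in HEPs and listed at 0 in HPCs. None of the 5 coregulator genes on the list reached the threshold.

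Genes known to be induced by retinoic acid were listed apart from the members. The members CYP26A1, RARB and CRABP2 are targets too and were counted with the members. Of 23 such targets, 4 also stand on the pathway list and 13 passed the filter. At the first transition 3 rose (MEIS2, ZNF703 and STRA6) and 2 fell, DHRS3 among them, and at the second 5 rose (HOXB4, MEIS1, MEIS2, TGM2 and SKAP2) and 2 fell, again with DHRS3 among them. At the third 2 rose, MEIS1 among them, and 4 fell, among them MEIS2, TGM2 and ZNF703. The targets changed thus numbered 5, 7 and 6 of 23, or 38.5%, 53.8% and 46.2% of the 13 that passed. Of all genes that passed the filter, 18.5%, 24.4% and 21.2% changed. The targets that rose did so in different libraries. ZNF703, a corepressor gene, was at 0.773 FPKM in BC1, 19.6 in mesoderm, 12.3 in HEPs and 4.09 in HPCs, and had the largest rise of the 3 into mesoderm, 25.3-fold (18.9 to 34.6).

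The 5 targets named above rose into HEPs, where CYP26A1 was at 0.0830 FPKM. CYP26A1 was also low in BC1, at 1.51 FPKM, and listed at 0 in HPCs, and a link to it was not tested. HOXB4, a homeobox gene of blood progenitors, was listed at 0 in BC1 and was measured at 0.573 FPKM in mesoderm, 15.3 in HEPs and 10.3 in HPCs. TGM2, a transglutaminase, had 1.16, 3.20, 69.7 and 6.45 FPKM, a rise of 21.8-fold (16.5 to 29.3) and then a fall of 10.8-fold (8.85 to 13.4). MEIS2, a cofactor of HOX proteins, had 0.301, 1.91, 33.0 and 13.5 FPKM. MEIS1, its paralog with a known role in blood stem cells, had 0.268, 1.12, 25.6 and 85.6 FPKM and rose at both later transitions. SKAP2, an adaptor gene beside the HOXA cluster, rose 4.69-fold (3.59 to 6.12) into HEPs. These genes also answer to other signals and mark endothelial or blood cells, and the part of retinoic acid in their levels was not tested.

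Several of the listed targets were hardly present. HOXB1, HOXA3 and CDX1 stayed under 1 FPKM in all 4 libraries, with at most 0.432 FPKM for HOXA3 in mesoderm. STRA8 and HOXD4 were listed at 0 in all 4. In mesoderm, CYP26A1 was at 286 FPKM, RARB at 0.0660 FPKM and HOXB1 at 0.133 FPKM. Of the 23 listed targets, 3 rose into mesoderm, ZNF703 to 19.6, STRA6 to 15.5 and MEIS2 to 1.91 FPKM, and 2 fell. None of the 42 other pathway and target genes with a promoter window held a DR5 in it.

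**Figure D5:**
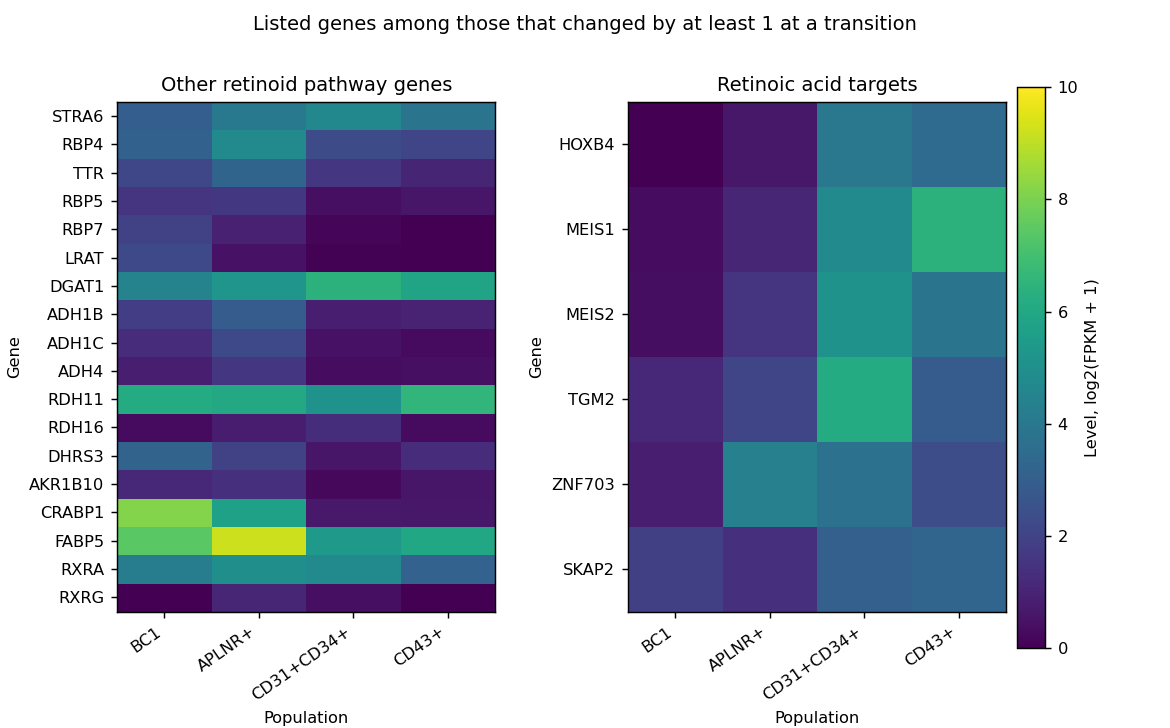
Level as log2(FPKM + 1), in colour, of 18 other pathway genes and 6 further targets that changed by at least 1 at a transition, with the 4 libraries in columns. Targets that stand on both lists are drawn on the left. CRABP1 is brightest in BC1 and FABP5 in APLNR+, while HOXB4, MEIS1, MEIS2 and TGM2 are dark until CD31+CD34+.

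For each member with at least 5 FPKM in some library, the 3 protein-coding genes with the nearest levels were found among 11040 candidates, by Euclidean distance over the 4 log2 values. For CYP26A1 they were MFAP4 (distance 0.913), EOMES (1.15) and GRP (1.16), all highest in mesoderm. EOMES, a transcription factor of the primitive streak and on the mesoderm marker list, was at 0.244 FPKM in BC1, 204.7 in mesoderm, 0.280 in HEPs and listed at 0 in HPCs. For ALDH1A1 they were MFAP3L (0.739), LRP12 (1.03) and HYAL3 (1.08), with 33.1 to 42.9 FPKM in HPCs. For CRABP2 they were KRT19 (1.30), TAGLN (1.81) and FBLIM1 (1.85), genes of the cytoskeleton and adhesion whose HPCs levels were 3.52 to 4.90 FPKM. For RARG they were CEP170B (0.426), MYO10 (0.446) and PRKCZ (0.561). RARA lay closest to its neighbours, CDC25B (0.167), PEX6 (0.172) and YPEL5 (0.251). With 4 values per gene, such a likeness is a description of these libraries.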

How the data were processed

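The authors deposited 1 table of gene-level FPKM values with 1 column per population, made from TruSeq libraries of total RNA. The submitters' processing notes name BWA, Bowtie, RSEM and hg19, with no role given, whereas 99.8% of the rows that share an identifier with GENCODE release 29 have its GRCh38 locus. Positions are therefore given on GRCh38, counted from 1. The unit is the one on the study's box plots, and the steps of the low values have the form it gives. The strand setting was not given in the sources used here. All expression columns were used.

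Rows of 1 gene identifier were summed (90 identifiers had several), values were analysed as log2(FPKM + 1), and the 17137 genes that reached 1 FPKM in some library formed the background. With 1 library per population no test was run. Depth was fitted from single-transcript genes of at least 1000 bases, where FPKM times effective length times depth is a whole number. From 93.8% to 95.6% of low values fell within 0.1 of one, and the length taken off was 260 to 280 bases. Approximate fragments used the median length of protein-coding transcripts. Folds against 0 fragments were set against a floor of 3 fragments per library. The depth fit and the calling of changed genes were tested on simulated data, and the counting intervals were not. The members and lists were chosen with earlier results of these data known. Named were all members, the listed genes that changed by at least 1 at a transition or that a count of 5 or fewer rests on, and the 3 nearest genes of each member with at least 5 FPKM in some library. Some listed genes enter the counts but are not reported here. Other listed genes that are given with values were chosen after their values were seen. The alternatives were a pseudocount of 0.1, a threshold of 2, no filter or a filter at 5 FPKM, scaling to the median ratio or to the same total, the highest row of an identifier and the longest transcript. Python 3.11.15 was used with numpy 2.4.6, pandas 2.3.3, scipy 1.17.1 and matplotlib 3.10.9.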

Additional observations from a re-analysis of the deposited data

How the results depend on the processing

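No paired analysis was possible because each population had 1 library and the labels carry no replicate numbers, so no replicate could be left out either. No change of direction past the threshold was seen under an alternative. With a pseudocount of 0.1 FPKM, 5 members rather than 3 changed from BC1 to mesoderm (ALDH1A1 and ALDH1A2 in addition), as did 9 rather than 5 targets and 4910 rather than 3165 of all genes, and 8 rather than 4 other pathway genes changed from HEPs to HPCs. With a threshold of 2, the members changed at the first and second transition numbered 1 and 3, and 3 changed at the third, as before. The other pathway genes numbered 1, 4 and 1, the targets 1, 4 and 2, and all genes 853, 1238 and 1132 at the 3 transitions. The filters and both scalings left the members changed at 2 to 3, 4 to 6 and 3. With the filter at 5 FPKM, 5 members passed, and 40%, 80% and 60% of them changed, against 18.2%, 26.2% and 22.7% of 11953 genes. With no filter, 30%, 60% and 30% of the 10 members changed, against 5.43%, 7.18% and 6.23% of 58274 genes. Of 30 member changes, 15 moved beyond their counting error with the smaller pseudocount and 0 with either scaling. The interval of RDH10 between HEPs and HPCs excluded 1 with the longest transcript and held 1 with the median one. Counting error was the limit for RARB, for ALDH1A2 in BC1 and for both CYP26 genes in HEPs. The spread between cultures was not measured.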

Other observations

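Directly upstream of CYP26A1, AL358613.2, a long intergenic non-coding RNA gene on the same strand (chromosome 10, 93071972 to 93073466), was listed at 2.30 FPKM in mesoderm and at 0 in BC1, HEPs and HPCs. It ends 8 bases before the start of CYP26A1 and was chosen after its values were seen. Its reads and those of CYP26A1 transcripts that begin further upstream cannot be told apart in these values.

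Of the 29 genes with a DR5 in a promoter window, 17 were in the table by symbol and 9 passed the filter, CYP26A1 among them. At the 3 transitions 2, 2 and 1 of these 9 rose, and 1, 2 and 1 fell. Among all genes that passed, 9.15% rose and 9.32% fell at the first transition, 13% and 11.4% at the second, and 7.63% and 13.5% at the third. A link of the changes to the repeat was not tested. Besides CYP26A1, those that changed were CFLAR, COL24A1, CYB5R2 and BATF2. CFLAR, an inhibitor of caspase-8, was measured at 3.54 FPKM in BC1, 15.8 in mesoderm, 152 in HEPs and 52.8 in HPCs. COL24A1, a fibrillar collagen gene, was at 0.180 FPKM in BC1, 0.143 in mesoderm, 1.66 in HEPs and 146 in HPCs. CYB5R2 fell from 27.6 FPKM in mesoderm to 5.29 FPKM in HEPs, and BATF2 fell from 2.39 FPKM in BC1 to 0.531 FPKM in mesoderm.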
